A study of Homo sapiens with 8 samples.

Results

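Coding exons away from promoters held 637 of the 126658 accessible regions found by ATAC-seq in MCF10A cells. The assay uses a transposase that inserts preferentially where DNA is not covered by nucleosomes, and a peak marks such an open stretch. The 4 deposited peak lists were merged wherever peaks shared 1 bp or more. A merged region was kept when the summit of its strongest peak lay in a protein-coding segment (CDS) of any GENCODE transcript and when the whole region lay more than 3 kb from every transcription start site (TSS). Of the 83134 regions that met the distance limit, 637 had a coding summit, 2197 had a summit in another exon (a UTR or a non-coding exon), 47803 in an intron and 32497 between genes. A further 1590 regions with a coding summit lay within 3 kb of a TSS and were not kept. The region just inside the limit, in the single coding segment of NRIP1, lay 3013 bp from a TSS with an area under the curve (AUC) of 485, 835, 1156 and 1112 in the solvent, 6 h, 24 h and 72 h lists. The region just outside, in HDC, lay at 2997 bp with AUCs of 4470, 4511, 3297 and 3194 in the same order.

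MCF10A is an immortalized line of human mammary epithelial cells, here of wild-type genotype. Cells received 5 ng/ml of TGFβ1, a cytokine that drives epithelial-mesenchymal transition, for 6, 24 or 72 h, or solvent (BSA in PBS), with 2 replicates each and 8 samples in all. Time 0 is the label of the solvent samples, although the study's own figure legend names 72 h of solvent. Both replicates of a condition were called together, so each condition had 1 peak list, no value existed per replicate, and none of the differences below could be set against the spread between replicates or tested. The AUC of a peak, its deposited signal value, is the area under the peak caller's significance curve. It rises with read depth and peak width, was not scaled between lists and was at least 200 in every list. A common target depth was planned for all samples, but how many reads each one yielded cannot be seen from the lists, and depth is unknown in that sense. Shares carry 95% Wilson intervals, which measure counting error and nothing else.

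A coding exon normally serves to spell a stretch of protein, but the same bases can also be bound by transcription factors. Some coding exons act as enhancers, of the gene they belong to or of a neighbour, and there the sequence is read both by the genetic code and by DNA-binding proteins. AP-1, a dimer of JUN and FOS family proteins, is a main factor at epithelial enhancers, and SMAD proteins carry the TGFβ signal to DNA. An open coding exon does not by itself show enhancer activity.

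The coding sequences under the summits of the regions that changed presence most are given first, because each shows which bases of a protein-coding stretch were open. All are 5′ to 3′ on the coding strand, on GRCh38, cut to the coding segment and to at most 50 bp on each side of the summit. Capitals mark matches to the AP-1, E-box or TEAD motif defined further on. The first 6 had a peak in all 3 TGFβ1 lists and none in solvent, with the largest AUCs at 72 h among the 94 members of that pattern.
EPB41L5, chr2:120104171-120104237, plus strand: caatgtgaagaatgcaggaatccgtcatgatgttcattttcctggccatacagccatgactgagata
PKD1L1, chr7:47873899-47873973, minus strand: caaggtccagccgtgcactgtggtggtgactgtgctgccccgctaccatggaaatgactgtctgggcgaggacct
IGFN1, chr1:201195856-201195956, plus strand: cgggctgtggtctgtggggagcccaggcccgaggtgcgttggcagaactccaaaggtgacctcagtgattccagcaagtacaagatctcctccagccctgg
EXPH5, chr11:108512047-108512147, minus strand: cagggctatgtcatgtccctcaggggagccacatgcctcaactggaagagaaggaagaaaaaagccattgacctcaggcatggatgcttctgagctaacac
ZNF565, chr19:36182787-36182887, minus strand: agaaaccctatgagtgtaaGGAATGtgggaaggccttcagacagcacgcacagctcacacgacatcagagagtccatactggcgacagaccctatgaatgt
MROH9, chr1:170959491-170959591, plus strand: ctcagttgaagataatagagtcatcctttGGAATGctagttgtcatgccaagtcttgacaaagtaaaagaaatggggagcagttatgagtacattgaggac
The next 5 had a peak in solvent and none at 72 h, with the largest solvent AUCs of the 16 such members.
RAB3GAP2, chr1:220151618-220151718, minus strand: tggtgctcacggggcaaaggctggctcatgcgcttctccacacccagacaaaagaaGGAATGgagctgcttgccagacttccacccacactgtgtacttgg
ALPK3, chr15:84859261-84859361, plus strand: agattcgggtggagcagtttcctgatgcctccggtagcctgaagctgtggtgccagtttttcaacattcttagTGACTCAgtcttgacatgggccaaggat
KLRG2, chr7:139479644-139479744, minus strand: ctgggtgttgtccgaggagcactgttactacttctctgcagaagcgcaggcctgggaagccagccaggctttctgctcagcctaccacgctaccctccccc
ZMAT3, chr3:179067686-179067752, minus strand: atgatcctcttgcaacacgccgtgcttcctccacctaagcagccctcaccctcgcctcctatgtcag
PALLD, chr4:168877892-168877942, plus strand: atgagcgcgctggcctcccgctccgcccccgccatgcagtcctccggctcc
The ZMAT3 and PALLD stretches open with the annotated ATG start codon. The last 3 came from regions with some of the largest AUCs of all members, open in every list, and are shown because motif letters lay in the coding bases next to their summits.
ZNF589, chr3:48268478-48268578, plus strand: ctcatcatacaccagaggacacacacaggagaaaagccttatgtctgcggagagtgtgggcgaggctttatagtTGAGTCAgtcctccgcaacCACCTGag
FAAP20, chr1:2189713-2189766, minus strand: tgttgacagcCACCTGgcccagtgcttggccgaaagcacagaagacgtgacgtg
RIN2, chr20:19975136-19975236, plus strand: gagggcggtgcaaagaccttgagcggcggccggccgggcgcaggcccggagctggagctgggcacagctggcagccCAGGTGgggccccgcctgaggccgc
The ZNF589 and ALPK3 stretches each carried an AP-1 match within coding bases, and the TEAD match of ZNF565 lay in the long last coding segment of that zinc finger gene. No AP-1 match was found within the printed stretches of the 6 gained regions, although the EXPH5 region held one farther from its summit. The RAB3GAP2 stretch, absent at 72 h, carried a TEAD match. A match is a string of letters and no evidence of binding.

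More coding-exon regions had a peak in the TGFβ1 lists than in the solvent list, by about the same factor as regions of the genome as a whole. The solvent list had a peak at 413 of the 637, and the lists of 6, 24 and 72 h at 539, 585 and 563. Relative to solvent these were 1.31-fold, 1.42-fold and 1.36-fold as many, beside 1.29-fold, 1.41-fold and 1.38-fold for all regions. The share of a list's regions that were coding-exon regions therefore differed little between lists, at 0.501, 0.507, 0.505 and 0.494% from solvent to 72 h. Since depth is unknown, the higher numbers cannot be told apart from a difference in depth.

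**Figure D1:**
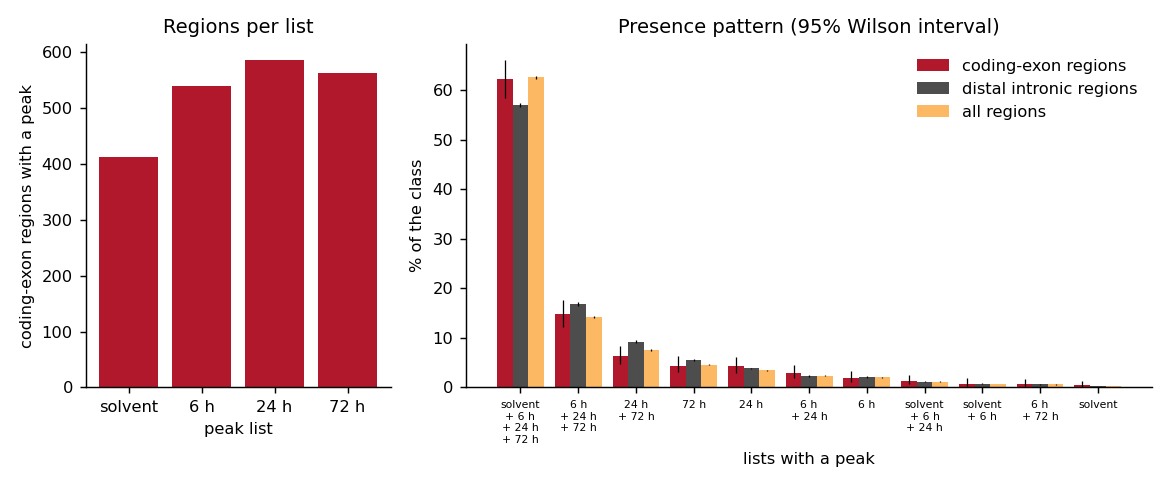
Left, number of the 637 coding-exon regions with a peak in each list. Right, share of coding-exon, distal intronic and all regions with each combination of lists, with bars for 95% Wilson intervals. The combination of all 4 lists held 62.3% of coding-exon regions, against 56.9% of intronic and 62.6% of all regions.

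Most coding-exon regions were open throughout. A peak was found in all 4 lists for 397 members (62.3%, interval 58.5 to 66.0%), against 56.9% of distal intronic regions and 62.6% of all regions. The commonest other pattern was a peak in all 3 TGFβ1 lists and none in solvent. It held 94 members (14.8%, interval 12.2 to 17.7%) in 92 genes, against 16.9% of intronic and 14.3% of all regions. Peaks at 24 and 72 h alone were found for 40 members (6.28%, all regions 7.55%). A peak at 72 h alone was found for 28 (4.40%, all regions 4.61%) and at 24 h alone for 27 (4.24%, all regions 3.42%). Peaks at 6 and 24 h were found for 19 (2.98%, all regions 2.39%) and at 6 h alone for 12 (1.88%, all regions 2.03%). Solvent peaks were rarely missing from the TGFβ1 lists, with 8 members lacking a peak at 72 h alone, 5 lacking it at 24 and 72 h and 3 present in solvent only. These were 1.26, 0.785 and 0.471% of members, against 1.19, 0.692 and 0.300% of all regions.

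Counted against solvent, 129 of the 542 members with a peak in either list were gained at 6 h (23.8%, interval 20.4 to 27.6%), where the background over all regions was 22.9%. At 24 h, 180 of 593 were gained (30.4%, background 29.8%), and at 72 h, 166 of 579 (28.7%, background 29.3%). Losses were few, with 3 members at 6 h (0.554%, background 0.551%), 8 at 24 h (1.35%, background 1.31%) and 16 at 72 h (2.76%, background 2.43%). Shares gained and lost thus lay close to the background at each time. Distal intronic regions were gained more often than coding-exon regions, at 26.9% after 6 h, 35.1% after 24 h and 35.2% after 72 h. Gains depended on list length. When every list was cut to its 86209 peaks of largest AUC, 7.21% of members were gained and 5.41% lost at 6 h, 11.2% and 11.6% at 24 h, and 12.2% and 16.0% at 72 h. Over all regions the same setting gave 8.69% gained and 5.44% lost at 6 h, 11.9% and 9.47% at 24 h, and 13.8% and 11.6% at 72 h. Equal list lengths bring gains and losses nearer to each other over all regions by construction.

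Gained and lost members were mostly weak peaks, as were gained and lost regions in general. The median AUC of the members gained at 72 h was 335, with a highest value of 2931, and that of the 16 members lost was 308, with a highest value of 619. Over all regions these medians were 361 and 275. Of the 16 lost members, 13 had a solvent AUC under 400, a share not computed over all regions. For comparison, the medians over all members with a peak were 588, 654, 669 and 642 in the 4 lists, and intronic regions lay somewhat higher at 616, 706, 704 and 691. Among the 94 members in all 3 TGFβ1 lists and not in solvent, the AUC was highest at 6 h in 16, at 24 h in 46 and at 72 h in 32, and in 29 it was higher in each list than in the one before. Only 5 of the 94 reached an AUC of 1000 at 72 h, a share not computed over all regions.

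Of these, the region in EPB41L5 stood highest. EPB41L5 is a FERM-domain protein of the cell cortex known for its part in epithelial-mesenchymal transition during gastrulation. Its region had no peak in solvent and AUCs of 1035 at 6 h, 2396 at 24 h and 2931 at 72 h. The summit lay in coding segment 16 of 16 of the transcript with most coding bases among those that hold it. The region was 3055 bp from the nearest TSS, and 21.7% of the strongest peak's bases were coding. The region in PKD1L1, a polycystin family member needed for left-right patterning, had AUCs of 857, 1515 and 1522 at 6, 24 and 72 h. The region in IGFN1, a muscle protein with immunoglobulin and fibronectin type III domains, followed the same course with 788, 1390 and 1409. The AUCs of both differed little between 24 and 72 h. The EXPH5 and ZNF565 regions differed in that the strongest peak consisted of coding bases only. EXPH5 encodes an effector of RAB27 in vesicle transport, and its region, in a coding segment of 5336 bp, had AUCs of 326, 744 and 1125. ZNF565 encodes a zinc finger protein, and its region, in a last coding segment of 1265 bp, had AUCs of 467, 881 and 1025. The region in MROH9 had AUCs of 395, 694 and 946. All 6 were highest at 72 h, the list whose AUC chose them.

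**Figure D2:**
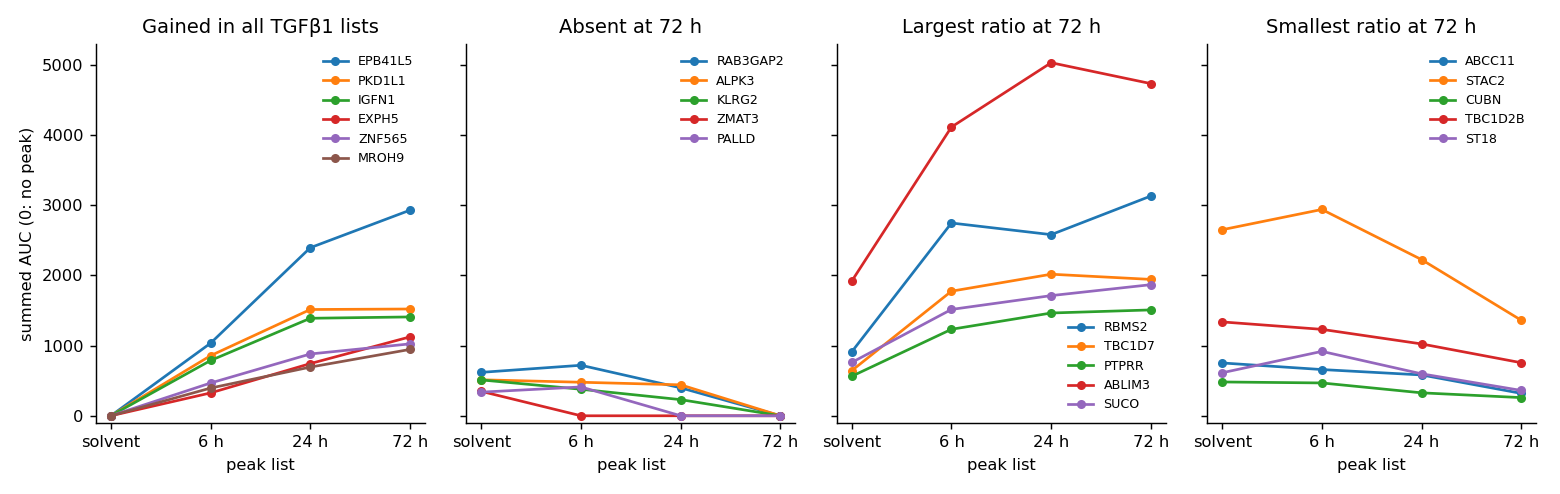
Summed AUC of named coding-exon regions in the 4 peak lists, 1 line per region, with 0 drawn where a list has no peak. The panels show the 6 strongest regions gained in all TGFβ1 lists, the 5 strongest solvent regions absent at 72 h, and the 5 regions each with the largest and smallest ratio of 72 h to solvent. The EPB41L5 region reached 2931 from no peak, and the STAC2 region went from 2652 to 1361.

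The regions absent at 72 h were weaker. RAB3GAP2 encodes a subunit of the complex that regulates RAB3 and RAB18, and its region had AUCs of 619, 720 and 398 in the lists before 72 h. The region in ALPK3, an alpha-kinase of heart muscle, went through 513, 478 and 441, and that in KLRG2, a lectin-like receptor, through 511, 378 and 230. In ZMAT3, which encodes an RNA-binding zinc finger protein induced by p53, the peak was present in solvent alone, with 348. Another ZMAT3 region (chr3:179027230-179027855) was open in all lists and went from 1097 to 1731, 1800 and 1959. PALLD encodes the actin-bundling protein palladin, and its region had an AUC of 337 in solvent and 411 after 6 h. The summit of the PALLD region was the first base of an annotated start codon, in sequence with a GC content of 78.6%. Of the regions absent at 72 h, all but those in RAB3GAP2, ALPK3 and KLRG2 had solvent AUCs under 400, and the lists start at 200.

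Where solvent and a TGFβ1 list both had a peak, regions were compared by the log2 ratio of their AUC to solvent. The median ratio of the members was 0.51 at 6 h (n = 410, order-statistic interval 0.49 to 0.54), 0.59 at 24 h (n = 405, interval 0.53 to 0.64) and 0.42 at 72 h (n = 397, interval 0.37 to 0.48). Over all regions the medians were 0.51, 0.50 and 0.39, a shift that cannot be told apart from a difference in depth, so members are described relative to it. Intronic regions had medians of 0.57, 0.60 and 0.52, and the members' median minus theirs was -0.05, -0.02 and -0.10. Per base of peak, the medians of the members were 0.35, 0.37 and 0.28, and their gap to intronic regions was 0.00, 0.01 and -0.02. Large ratios were uncommon among coding-exon regions. A ratio at least 2-fold above the median of all regions was found in 5 members at 6 h (1.22%, background 2.83%), 20 at 24 h (4.94%, background 6.40%) and 19 at 72 h (4.79%, background 7.93%). A ratio at least 2-fold below it was found in 1 member at 6 h (0.244%, background 0.271%), 4 at 24 h (0.988%, background 1.32%) and 6 at 72 h (1.51%, background 1.83%). Each of these shares was below its background, with counts of 20 or fewer behind them.

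**Figure D3:**
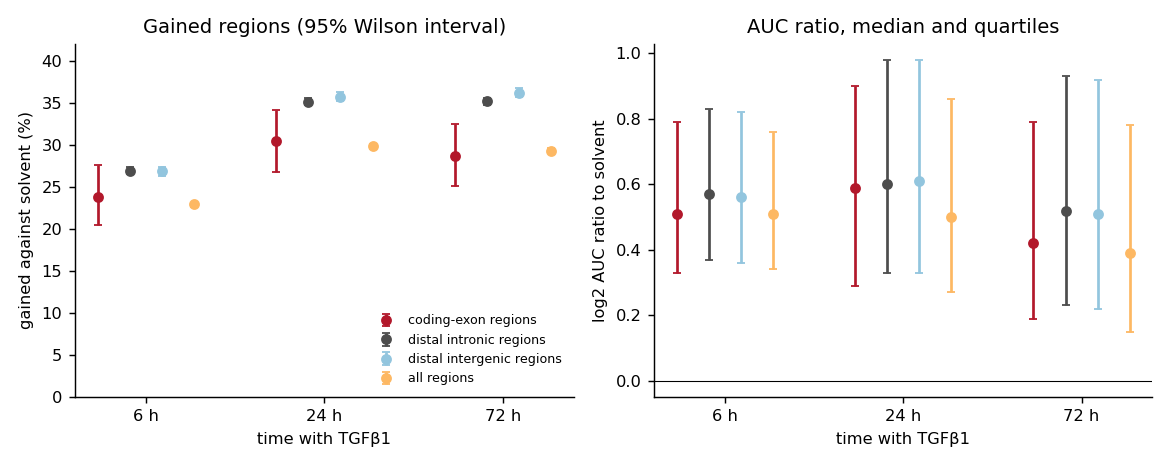
Left, share of regions gained against solvent among regions with a peak in either list, with 95% Wilson intervals. Right, median log2 ratio of AUC to solvent where both lists had a peak, with bars for quartiles. At 72 h, 28.7% of coding-exon regions were gained against 35.2% of distal intronic regions, and the median ratios were 0.42 and 0.52.

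Among the 397 members with a peak in every list, the AUC was lowest in solvent in 339, against 68261 of 79275 over all regions. The members' AUC was highest at 24 h in 189 (47.6%), at 6 h in 138 (34.8%), at 72 h in 64 (16.1%) and in solvent in 6 (1.51%). Intronic regions peaked at 24 h in 38.2%, at 6 h in 36.5%, at 72 h in 24.2% and in solvent in 1.09%. Over all regions these shares were 34.7%, 45.2%, 19.0% and 1.02%. The AUC was higher in each list than in the one before in 42 members (10.6%, against 17.5% of intronic and 13.6% of all regions). It was lower in each in 4 members, against 433 of 79275 over all regions. The order of the lists within a region also carries each list's depth.

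The regions with the largest ratio at 72 h, among members open in all lists with a solvent AUC of 400 or more, were in RBMS2, TBC1D7, PTPRR, ABLIM3 and SUCO. The region in RBMS2, which encodes an RNA-binding protein (chr12:56581671-56583033), had AUCs of 911, 2748, 2582 and 3133 from solvent to 72 h, a log2 ratio of 1.78 at 72 h. The region in TBC1D7, the third subunit of the TSC complex that restrains mTORC1 (chr6:13307525-13308183), went from 643 to 1776, 2018 and 1944. In PTPRR, a tyrosine phosphatase that acts on MAP kinases (chr12:70660891-70661231), the AUC went from 563 to 1233, 1465 and 1509. In ABLIM3, an actin-binding LIM protein (chr5:149205706-149207210), it went from 1919 to 4116, 5033 and 4735, and in SUCO, a SUN-domain protein of the endoplasmic reticulum (chr1:172588739-172589314), from 760 to 1516, 1713 and 1869. In all 5, most of the difference between solvent and 72 h was present at 6 h. Their log2 ratios at 72 h lay between 1.30 and 1.78, or 0.91 to 1.39 above the median of all regions. Coding bases made up 8.49% of the strongest peak in ABLIM3 and 97.1% in SUCO, so the SUCO region is the one of the 5 that lay almost wholly in a coding segment.

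The regions with the smallest ratio at 72 h, by the same rule, were in ABCC11, STAC2, CUBN, TBC1D2B and ST18. The region in ABCC11, an ATP-dependent efflux transporter (chr16:48210835-48211119), went from 753 in solvent to 659, 582 and 319, with a log2 ratio of -1.24 at 72 h. The region in STAC2, an adaptor protein of calcium channels (chr17:39212179-39213377), was the strongest of the 5 and went from 2652 to 2941, 2226 and 1361. That in TBC1D2B, a RAB GTPase-activating protein (chr15:78012692-78013201), went from 1338 to 1232, 1024 and 756. That in CUBN, the endocytic receptor cubilin (chr10:17113986-17114203), went from 482 to 468, 327 and 259. In ST18, a zinc finger transcription factor, the AUC went from 613 to 918, 598 and 361, whereas another ST18 region went from 213 to 755, 288 and 377. The ABCC11, CUBN and TBC1D2B regions were lower in each list than in the one before, whereas those in STAC2 and ST18 were higher at 6 h than in solvent.

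The strongest members, of which 5 are described, were open in all lists. The log2 ratios of these 5 at 72 h, from 0.10 to 0.37, lay between -0.29 and -0.03 relative to the median of all regions. They were in TMEM143 (highest AUC 7686, at 6 h), ZNF589 (6674), FAAP20 (5873), CRYBG1 (5862) and RIN2 (5820). FAAP20 encodes a member of the Fanconi anaemia core complex, and RIN2 an exchange factor for RAB5. Coding bases made up 4.88% of the strongest peak in FAAP20, 19.2% in TMEM143 and 48.2% in ZNF589, against 62.5% in RIN2 and 88.7% in CRYBG1. In FAAP20 and TMEM143 the coding exon was therefore a small part of a wide open region.

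The fit between peak and exon was loose in most members. The strongest peak had a median width of 284 bp and a median of 51.8% coding bases (quartiles 35.6 and 74.2%). It spanned the coding segment on both sides in 362 members (56.8%), crossed one end in 200 (31.4%) and lay inside the segment in 75 (11.8%). The summit was a median of 40 bp from the nearest end of the segment. The segment itself had a median length of 163 bp, against 126 bp over all 85110 coding segments more than 3 kb from every TSS. If every coding base had been equally likely to be hit, the median would have been 179 bp. Segments over 500 bp held 14.9% of members and 24.1% of the coding bases. The segment was internal in 473 members (74.3%, against 74.9% of coding bases), the last in 133 (20.9%, against 19.4%), the first in 21 and the only one in 10. Gene strand was even, with 320 members on the plus and 317 on the minus strand. Most peaks thus covered non-coding bases as well.

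Members that lay wholly in coding sequence were weaker and more often gained than those that spanned the exon. The 75 with the strongest peak inside the segment had a median AUC of 527, taking the strongest peak, and 28 of 66 were gained at 72 h (42.4%, interval 31.2 to 54.4%), beside 29.3% over all regions of any fit. The 362 with a peak spanning the segment had a median of 869, and 75 of 341 were gained (22.0%, interval 17.9 to 26.7%). Those crossing one end lay at 464 and 36.6%. The median log2 ratio at 72 h differed little between the kinds, at 0.38 inside, 0.43 crossing and 0.43 spanning. Median region widths were 266, 238 and 395 bp in the same order, so fit, width and AUC moved together, and their parts in the gain were not tested.

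**Figure D4:**
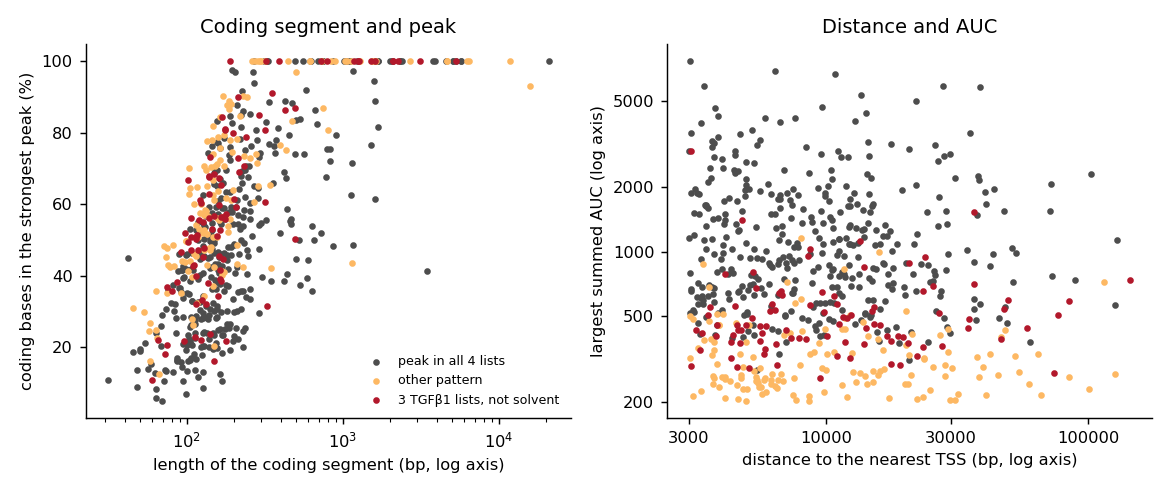
Each point is 1 of the 637 coding-exon regions, coloured by presence pattern. Left, length of the coding segment under the summit (log axis) against the coding share of the strongest peak, with 75 regions whose strongest peak lay inside the segment. Right, distance to the nearest TSS (log axis) against the largest summed AUC of the 4 lists (log axis), where regions open in all lists hold most of the high AUCs.

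Coding sequence was about as densely occupied as introns. Distal coding sequence came to 15.6 Mb, 0.652% of all sequence more than 3 kb from a TSS, and held 0.766% of the distal regions. This was 40.8 regions per Mb, against 37.1 in introns, 44.7 in other exons and 31.2 between genes. The ratio of coding to intronic density was 1.10 (interval 1.02 to 1.19), and 1.07 with the coding sequence of canonical transcripts only.

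Members were richer in G and C than intronic regions. In the window of 100 bp on each side of the summit the median GC content was 50.2%, against 45.8% in intronic and 48.3% in all regions, and the mean number of CpG dinucleotides was 5.65 against 2.35 in introns. The share gained was lower at higher GC content. Of members with a GC content under 45%, 79 of 163 were gained at 72 h (48.5%, interval 40.9 to 56.1%), of those from 45 to under 55%, 56 of 216 (25.9%, interval 20.5 to 32.2%), and of those at 55% or more, 31 of 200 (15.5%, interval 11.1 to 21.2%). Intronic regions had 43.6%, 31.5% and 17.9% in the same classes. Members were thus gained more often than intronic regions under 45% and less often in the classes above it. Each intronic share lay within the interval of the members. From the lowest to the highest class, the members' median AUC, taking the strongest peak, was 503, 686 and 849. Their median region width was 258, 298 and 390 bp, and their median log2 ratio at 72 h was 0.54, 0.53 and 0.29. GC content, width and AUC thus moved together, and their parts in the gain were not tested. When intronic regions were weighted to the members' GC content, 22.8% were gained at 6 h, 29.9% at 24 h and 28.9% at 72 h, against 23.8%, 30.4% and 28.7% of members. With this weighting the shares gained lay close together, although the gaps within the classes went in both directions. This weighting was chosen after the data had been seen.

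**Figure D5:**
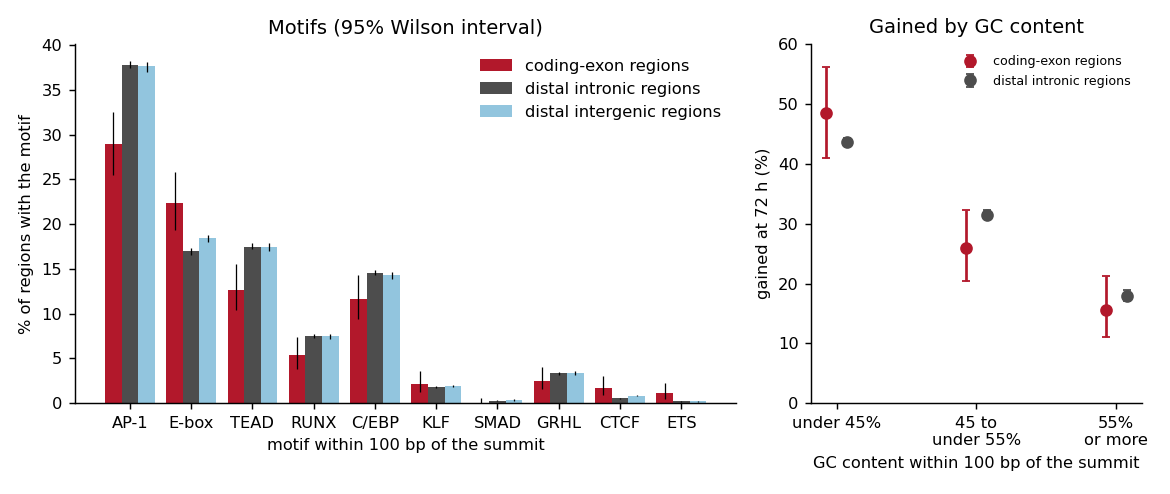
Left, share of regions with each motif within 100 bp of the summit, with 95% Wilson intervals. Right, share gained at 72 h by GC content of the same window. AP-1 was found in 28.9% of coding-exon and 37.8% of distal intronic regions, and 48.5% of the coding-exon regions of lowest GC content were gained against 15.5% of the highest.

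Exact matches to 10 motifs were sought on both strands of the same windows. The AP-1 motif TGACTCA was found in 184 members (28.9%, interval 25.5 to 32.5%), against 37.8% of intronic and 32.3% of all regions. The E-box CACCTG, a site of SNAIL and ZEB factors, was found in 143 members (22.4%, interval 19.4 to 25.8%), against 17.0% of intronic and 17.9% of all regions. With intronic regions weighted to the members' GC content, the intronic shares were 33.3% for AP-1 and 20.1% for the E-box, so both gaps were smaller and had the same direction, with an interval of -0.709 to 5.76 percentage points for the E-box. TEAD (GGAATG) was found in 12.7% of members, 17.5% of intronic and 15.9% of all regions. In the same order, C/EBP (TTNNGCAA) was found in 11.6%, 14.6% and 12.6%, and RUNX (TGTGGTT) in 5.34%, 7.47% and 6.48%. GRHL (AACNNGTT) was found in 16 members (2.51%, 3.33% and 3.07%) and KLF (GGGNGTGGC) in 14 (2.20%, 1.84% and 2.45%). The CTCF core (CCAGGGGGC) was found in 11 members (1.73%, interval 0.967 to 3.07%, against 0.536% and 0.928%). ETS (CCGGAAGT) was found in 7 (1.10%, interval 0.533 to 2.25%, against 0.218% and 0.868%). For the motifs other than AP-1 and the E-box, intronic regions were not weighted to GC content. The SMAD palindrome GTCTAGAC was found in 0 of the 637 members, which allows a share of up to 0.599%, and in 0.303% of intronic regions, so a difference was not detectable with this number of regions. In 6 members, matches of different motifs overlapped.

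Members with an AP-1 match were gained at 72 h in 60 of 176 cases (34.1%), those without in 106 of 403 (26.3%), and over all regions the shares were 35.2% with and 26.4% without a match. Their median log2 ratios at 72 h were 0.56 and 0.36, and their median GC contents 48.3% and 52.2%, so the match moved with GC content. Of the 94 members in all TGFβ1 lists and not in solvent, 37 held an AP-1 match (39.4%, interval 30.1 to 49.5%), against 28.5% of the members open in every list. Over all regions the shares were 40.1% and 31.4% for the same patterns, and in introns 41.3% and 39.4%, so the members gained in this way held the motif about as often as other regions of the pattern. E-box matches went the other way, with 21.9% gained with a match and 30.6% without (23.8% and 30.5% over all regions), at median GC contents of 55.7% and 49.3%. Members thus differed by motif much as all regions did. Distal intronic regions differed less by AP-1, with 36.5% gained with a match and 34.3% without. By E-box their shares were 28.7% and 36.5%. The part of GC content in these differences was not tested.

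The members lay in 588 genes, of which 544 held 1 region, 39 held 2 and 5 held 3. Of the 13360 genes with a coding segment more than 3 kb from every TSS, 582 held a member (4.36%). The median coding length was 2601 bases in the holding transcript, against 1515 bases for all genes with such a segment. Genes with more coding bases offer more places for a summit, so a longer median is built into this comparison. For 238 members (37.4%) the nearest TSS belonged to another gene than the one whose exon was open. Their response was close to that of the rest, with 29.9% against 28.0% gained at 72 h and median log2 ratios of 0.43 and 0.42.

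The genes with 3 regions were CD163L1, CRYBG1, CUBN, FBN2 and HMCN2, and regions of 1 gene differed in course. In CUBN, whose region in coding segment 8 of 67 went from 482 in solvent to 259 at 72 h, a region in segment 10 (chr10:17109545-17109786) went from 236 to 595, 816 and 837. The remaining CUBN region, in segment 66 (chr10:16828219-16829190), went from 1125 in solvent to 2170, 2170 and 2035. The segments 8 and 10 lie some kilobases apart. FBN2 encodes fibrillin-2, a protein of extracellular microfibrils. Its region in segment 6 went from 592 in solvent to 1428, 1539 and 1337, and that in segment 35 from 249 to 397, 514 and 580, whereas that in segment 23 was level at 1722, 1879, 1770 and 1720. In CD163L1, a scavenger receptor, 2 regions had no solvent peak and reached 219 and 536 at 72 h, and the third went from 207 to 463, 537 and 672. CRYBG1, a protein with beta/gamma-crystallin domains, held 2 strong regions open in all lists, the weaker of which went from 1694 in solvent to 2843, 2999 and 2890 within a coding segment of 2323 bp. Its remaining region had AUCs of 266 and 243 at 6 and 24 h only. In HMCN2, a hemicentin of the basement membrane, the regions reached at most 569.

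The 6 groups of genes with roles in epithelial-mesenchymal transition and signalling each held at most 6 coding-exon regions. The groups are short lists of genes, and related genes outside them held members too. With so few regions, none of their shares or densities can be read against those of all genes. The share of genes with a region also carries their coding length. Of 23 cell junction genes with a distal coding segment, 0 held one, beside 4.36% of all such genes. A limit of 3 divided by 23, which is not a Wilson limit, allows a share of up to 13.0%. Junction genes outside that list did hold regions, among them CLDN15, a claudin of tight junctions, with AUCs of 2003, 2814, 2437 and 2250, and GJA1, the gap junction protein connexin 43, with 355, 679, 881 and 667. Of 26 genes of the actin and plectin cytoskeleton, 5 (19.2%) held one, namely MACF1, MYO10, PALLD, PLEC and UTRN. They held 6 regions in 113 kb of distal coding sequence, or 53.3 per Mb beside 44.0 over all genes. The 44.0 rests on 14486 kb of distal coding sequence, against the 15.6 Mb behind the 40.8 per Mb given earlier. The strongest of the 6 regions was in PLEC, the cytolinker plectin, with AUCs of 3040, 3255, 3510 and 3342. The region in MACF1, which links actin to microtubules, was nearly level at 696, 749, 695 and 608. Of 29 genes of matrix and integrins, 2 held one (6.90%, or 29.0 regions per Mb). That list was without FBN2, LAMA2 and ITGA1, which also held regions. The AGRN region went through 529, 740, 793 and 682, and the ITGB4 region was present at 24 h alone, at 258. Of 26 growth factor receptor genes, 2 held one (7.69%, or 27.5 regions per Mb), both of the LDL receptor family. The LRP6 region had AUCs of 268, 455 and 381 after TGFβ1 and the LRP1 region 236 at 72 h alone. Outside the list, the receptor tyrosine kinase gene PDGFRB held a stronger region, with 2883, 3276, 2829 and 2833, and ROS1 another, with 2630, 3345, 3560 and 3467.

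Of 25 genes of the TGFβ and SMAD pathway, 4 held 5 regions (16% of the genes, beside 4.36% of all such genes). This was 172 regions per Mb of distal coding sequence, beside 44.0 over all genes. Of the 5 regions, 4 were gained at 72 h. ZFYVE9 encodes SARA, the endosomal protein that presents SMAD proteins to the receptor, and held 2 regions in its coding segment 2, of 2108 bp (chr1:52238458-52238791 and chr1:52237521-52237746). They had no solvent peak and AUCs of 627, 848 and 822 in one and 298, 424 and 527 in the other, and both strongest peaks consisted of coding bases only. BAMBI, a pseudoreceptor that dampens TGFβ signalling, held a region (chr10:28681327-28681584) with AUCs of 263, 406 and 273. LTBP1, which tethers latent TGFβ to the matrix, held one (chr2:33110555-33110748) with 312 at 24 h and 319 at 72 h. SMAD1, a SMAD of the BMP branch, held the one region of the list open in all lists, with 389, 541, 641 and 518 and a log2 ratio of 0.41 at 72 h. With 5 regions, of which the 4 gained lie under an AUC of 900, the list is too small to be read against the 29.3% gained over all regions. The same holds for its share and density beside those of all genes.

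Of 28 genes of chromatin and transcription cofactors, 6 held 1 region each, namely ARID1B, ASH1L, CHD2, CHD7, SETD2 and ZFHX3 (21.4%, beside 4.36% of all genes). This was 78.9 regions per Mb of distal coding sequence beside 44.0 over all genes. The 28 genes had 76.1 kb of distal coding sequence, against 14486 kb in 13360 genes, so coding length enters the share of genes. With 6 regions, the list is too small for its share and density to be read against those of all genes. The CHD2 region, in a chromatin remodeller (chr15:92978904-92979577), went from 392 in solvent to 1031, 1167 and 1021. The ASH1L region, in a histone methyltransferase (chr1:155479256-155479562), lay wholly in a coding segment of 4564 bp and went from 232 to 559, 859 and 744. The region in SETD2, the methyltransferase for lysine 36 of histone H3, had no solvent peak and AUCs of 213, 358 and 681. The region in ARID1B, a subunit of the BAF remodelling complex, had AUCs of 464, 486, 494 and 552, and that in ZFHX3, a homeodomain factor, 309, 386, 507 and 373. Their log2 ratios at 72 h were 0.25 and 0.27, below the 0.39 of all regions, whereas those of CHD2 and ASH1L were 1.38 and 1.68. The CHD7 region had AUCs of 264 at 24 h and 206 at 72 h alone.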

How the data were processed

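ATAC-seq was carried out on 8 MCF10A samples, 2 per condition (solvent or TGFβ1 for 6, 24 or 72 h). Per the submitters' processing notes, GRCh38, Trimmomatic 0.38, Bowtie2 2.4.5, Picard, SAMtools 1.4.1 and Genrich 0.5 were used, and per the study's methods both replicates of a condition were called together and blacklisted peaks removed. The authors deposited, for each of 4 lists, the AUC as signal value and the −log10 p at the summit. No read counts were used here, so depth is unknown. Each list's name gave its condition. All peaks lay within the chromosome lengths of hg38.

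Genes came from GENCODE 44 (252835 transcripts, 62700 genes). A summit's coding segment was numbered in the transcript of the holding gene with most coding bases among those that hold the summit. That transcript need not be the canonical one, and 589 members had a summit in the coding sequence of a canonical transcript. AUC was summed per region and list. Gained means a peak in the TGFβ1 list and none in solvent, and lost the reverse. Intervals of medians are order-statistic intervals.

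Named were the 6 members of largest AUC, the 6 with largest AUC at 72 h among those in all TGFβ1 lists and not in solvent, the 5 with largest solvent AUC among those absent at 72 h, the 5 each of largest and smallest ratio at 72 h, the 5 genes with most members, and the 3 strongest members in each of 6 gene lists (185 genes). Of the 6 members of largest AUC, 1 is not reported here. Other members of those lists (ARID1B, BAMBI, CHD7, LTBP1 and ZFHX3) and genes outside them (CLDN15, GJA1, ITGA1, LAMA2, PDGFRB and ROS1) were named after their values were seen. The further regions in ZMAT3 and ST18 were also named in that way. Members, lists and rules were chosen with earlier results of these data known. Alternatives covered the distance limit, the TSS and CDS sets, the choice of summit, equal list length, an AUC of at least 400, the AUC measure and the motif window. Weighting intronic regions to the members' GC content or TSS distance was added after the data were seen. Scripts were tested on simulated data and used pysam 0.24.0, matplotlib 3.10.9, scipy 1.17.1, pandas 2.3.3 and numpy 2.4.6 under Python 3.11.15.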

Additional observations from a re-analysis of the deposited data

How the results depend on the processing

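Of 102 values recomputed under alternative settings, 76 stayed within the interval of the main value, or within 1.5 times of it for the number of members. That number ranged from 471 (over 5 kb from every TSS) to 945 (over 1 kb). A sign could differ among the 76 where the main interval included 0. Other distances (1 kb, 5 kb or from the summit alone), protein-coding TSSs, canonical CDS, the summit by −log10 p, the AUC of the strongest peak and a weighting to TSS distance gave no other share or median beyond the interval. With a minimum AUC of 400, 54.6% of members had a peak in all lists, 30.1%, 38.4% and 33.7% were gained at 6, 24 and 72 h, and the median log2 ratios were 0.45, 0.47 and 0.36 (all regions 61.3%, then 25.4%, 31.9% and 31.0%, then 0.47, 0.44 and 0.33). With lists of equal length (86209 peaks), 66.9% had a peak in all lists, 7.21%, 11.2% and 12.2% were gained and 5.41%, 11.6% and 16.0% lost (all regions 70.0%, then 8.69%, 11.9% and 13.8%, then 5.44%, 9.47% and 11.6%). Per base of peak, the median log2 ratios were 0.35, 0.37 and 0.28. The gap to intronic regions was 0.00 at 6 h, with its sign turned, 0.01 at 24 h in place of -0.02, and -0.02 at 72 h. AP-1 was found in 22.6% of members within 50 bp of the summit and in 34.2% over the whole strongest peak. With intronic regions weighted to the members' GC content, members minus intronic regions came to 0.972 percentage points gained at 6 h in place of -3.09, 0.419 at 24 h in place of -4.78 and -0.256 at 72 h in place of -6.51, so the direction turned at 6 and 24 h. The AP-1 gap was -4.37 in place of -8.90 and the E-box gap 2.36 in place of 5.48. Beyond what these settings alter by construction, the cause was not tested. No paired analysis was possible because each list pools both replicates, and leaving out a replicate was not possible for the same reason. Depth is unknown, so absence from a list is not evidence of closed chromatin.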
